A study of Mus musculus with 47 samples.

Results

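The transcripts described here are those of 10 genes that the tumour suppressor p53 switches on directly: Cdkn1a, Ccng1, Plk2, Mdm2, Bax, Bbc3, Pmaip1, Perp, Trp53inp1 and Sesn1. They were chosen by name, and every probe set whose platform annotation gave that 1 gene symbol was taken. Of the 10 genes, 9 had such a probe set, with 16 probe sets among them, out of 12393 genes that the array measured by a probe set of 1 symbol. No probe set carried the symbol of Bax alone, so Bax was not analysed here. All 9 passed the filter on low signals, which left 8810 genes for testing.

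The data were Affymetrix arrays of total RNA from 47 mouse T-cell lymphoblastic tumours, 1 array a tumour, in 14 genetic backgrounds. The largest group was Cdkn2a knockout with retroviral insertional mutagenesis, with 9 tumours. These mice lack the locus that encodes Arf, the inhibitor of Mdm2, and the retrovirus then inserts into further genes. The second was TLX1 transgenic, with 6 tumours, the only ones labelled TLX1 positive; the other 41 were labelled TLX1 negative. Among the groups of 3 tumours were p53 knockout, Ikaros Plastic (a mutant allele of the Ikaros gene) and 3 single transgenics, of LMO1, ThPOK and beta-catenin. The Nup98HoxD13 fusion transgenic and the double transgenics olig1-LMO1 and Tal1-LMO2 also had 3 tumours each. The Pokemon transgenic, the Tal1 transgenic, the rag E2A knockout and the E2A knockout had 2 tumours each. There was no sample of normal thymus, and the labels used here gave no strain, age, transgene promoter or source animal. A p-value here therefore measures the spread between tumours, which may share a source. Levels are the deposited signals, in arbitrary units, with array medians from 49.6 to 106.

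p53 is a transcription factor that is held at a low level by Mdm2, a ubiquitin ligase that p53 itself induces, and it is released when DNA is damaged or when an oncogene raises Arf. Its targets halt the cell cycle, trigger apoptosis through the mitochondrion, or change metabolism and growth signalling. Loss of p53 itself is a common route to thymic lymphoma in mice, and the question put to the 14 backgrounds was which of them keep the output of p53, taking the p53 knockout tumours as the level without it.

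p53 binds DNA at a pair of short decamers with a shared consensus, and the promoters of the measured genes were searched for it because it is the feature through which p53 is known to act on them. RefSeq promoter windows of the GRCm38.p6 build, from 250 bases before to 50 bases after each annotated start, were available for 6 of the 9 measured genes, and 4 of these held at least 1 exact match to the p53 decamer consensus, which reads the same on both strands. The same match was present in 8.36 percent of all 32851 mouse windows of that length. This share counts windows, and the 6 genes had 1 to 3 windows each. The 1 window of Ccng1 and 1 of the 2 windows of Cdkn1a held 2 adjoining decamers with at most 1 mismatch in all. Such a pair was found in 0.0883 percent of all windows. This stricter search was added after the first matches had been seen. The 1 window of Plk2 and the 3 windows of Bbc3 held no exact decamer. Windows for Perp, Pmaip1 and Trp53inp1 were not used. The matched bases are in capitals, and each sequence reads 5′ to 3′ on the strand of the gene. Cdkn1a is at chr17:29090888-29090978 on the plus strand, in 1 of its 2 windows, with the match beginning 51 bases before the start and 1 mismatch. Ccng1 is at chr11:40755422-40755521 on the minus strand, 195 bases before the start with 1 mismatch. Mdm2 is at chr10:117710895-117710984 on the minus strand, with 1 exact decamer 186 bases before the start. Sesn1 is at chr10:41887226-41887315 on the plus strand, in 1 of its 2 windows, with 1 exact decamer 173 bases before the start. A match describes the letters of the window, not a site bound in these tumours.
Cdkn1a: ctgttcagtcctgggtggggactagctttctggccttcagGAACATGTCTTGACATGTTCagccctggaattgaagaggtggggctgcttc
Ccng1: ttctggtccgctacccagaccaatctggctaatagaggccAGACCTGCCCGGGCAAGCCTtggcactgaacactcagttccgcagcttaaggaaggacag
Mdm2: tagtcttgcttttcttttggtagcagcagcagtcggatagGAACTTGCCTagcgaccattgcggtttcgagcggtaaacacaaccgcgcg
Sesn1: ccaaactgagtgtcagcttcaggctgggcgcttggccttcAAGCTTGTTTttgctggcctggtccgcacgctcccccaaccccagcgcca

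Of the 3 p53 knockout tumours, 1 stood apart from all other tumours and went against its label as a T-cell lymphoblastic tumour. In p53 knockout 2 only 1 of 10 T lymphoblast markers was above the array median, and their summed signal was 1608, against 18770 and 17944 in p53 knockout 1 and 3 and at least 7844 in all 44 tumours of the other backgrounds. Its summed endothelial signal over 12 markers was 19769, with 11 of them above the array median, against 929 and 973 in p53 knockout 1 and 3. Its stromal sum over 11 markers was 26767, against 5792 and 4652. Over the 3 p53 knockout tumours the summed epithelial, myeloid and B cell markers ran from 260 to 448, 3271 to 7144 and 2903 to 4904. In bulk tissue, fewer cells of a type and less RNA per cell cannot be told apart. Results that rest on p53 knockout are therefore given with all 3 tumours and with p53 knockout 1 and 3 alone. RNA quality also differed between backgrounds. The log2 ratio of the 3′ to the 5′ Gapdh control probe set reached 2.86 in TLX1 transgenic tumours and was 0.71, 0.51 and -0.16 in p53 knockout 1, 2 and 3; the highest value in the other 12 backgrounds was 0.37.

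Differences below are on the scale of log2(signal + 15.9), with the standard error, and were called at a Benjamini-Hochberg adjusted p under 0.05 in limma. All 9 genes differed among the 14 backgrounds in the moderated F test, with adjusted p from 0.000321 for Pmaip1 to 0.0445 for Cdkn1a, but 68.1 percent of all tested genes did so too. When p53 knockout 2 was left out, 8 of the 9 were called, against 72.3 percent of all genes, and Ccng1 was not (adjusted p = 0.125). The share of members above the mean of the 14 backgrounds was 9 of 9 in Cdkn2a knockout, 7 of 9 in Ikaros Plastic and in LMO1 transgenic, and 6 of 9 in TLX1 and in beta-catenin transgenic. It was 3 of 9 in p53 knockout and 2 of 9 in E2A knockout and in rag E2A knockout. The mean over the 9 genes was -0.19 in p53 knockout, -0.37 in rag E2A knockout and 0.41 in Cdkn2a knockout. These values depend on p53 knockout 2. Without it, p53 knockout had 1 of 9 above the mean, the fewest of the 14 backgrounds, with E2A knockout, rag E2A knockout and Nup98HoxD13 transgenic next at 2 of 9. The mean over the 9 genes was then -0.34 in p53 knockout, -0.36 in rag E2A knockout and 0.42 in Cdkn2a knockout. The share of all genes above the mean is not given here. With all tumours, the median difference of all tested genes from the mean of the other backgrounds was 0.04 in p53 knockout and 0.02 in Cdkn2a knockout. Over the 14 backgrounds it ran from -0.09 in Tal1 transgenic to 0.09 in Ikaros Plastic.

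**Figure D1:**
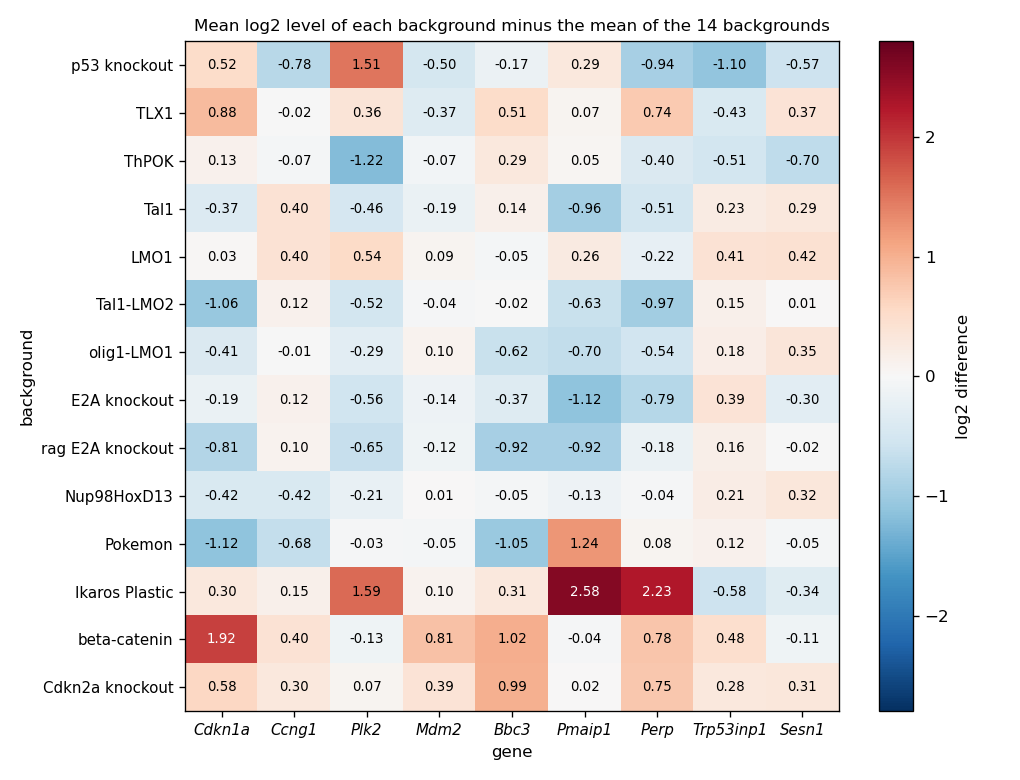
Mean log2(signal + 15.9) of each measured p53 target gene (columns) in each of the 14 backgrounds (rows), minus the mean over the 14 backgrounds. The colour scale gives the difference in log2 units. All 9 genes are above that mean in Cdkn2a knockout tumours and 3 of the 9 are in p53 knockout tumours, or 1 of the 9 without p53 knockout 2.

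Compared with the mean of the other 13 backgrounds, the p53 knockout tumours had Ccng1 and Trp53inp1 lower and Plk2 higher, and the other 6 genes were not called. Of all tested genes, 9.34 percent were called lower in this comparison and 12.4 percent higher, against 2 and 1 of the 9 members. The median difference of the members was -0.54, against 0.04 over all tested genes. Without p53 knockout 2, 0 of 9 members were called, where 2.67 percent of genes were called lower and 4.02 percent higher; 8 of the 9 differences were below 0, with a median of -0.40 against 0.04 over all genes.

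The Cdkn2a knockout tumours had Bbc3 and Mdm2 above the mean of the other 13 backgrounds, where 16.1 percent of all genes were called higher. None of the 9 members was called lower, as 14.6 percent of all genes were, and all 9 differences were above 0, with a median of 0.33 against 0.02 over all genes. Set directly against p53 knockout, 6 members were higher in Cdkn2a knockout (Ccng1, Mdm2, Bbc3, Perp, Trp53inp1 and Sesn1), and Plk2 was lower. In that comparison 14.2 percent of all genes were called higher and 15.2 percent lower, and the median was 0.89 for the members and -0.04 for all genes. Without p53 knockout 2, Bbc3 and Sesn1 were called higher and none lower, against 9.24 percent and 10.9 percent of all genes. All 9 differences were then above 0, with a median of 0.77 against -0.01 over all genes. The groups of this comparison also differed in T lymphoblast markers: the summed signal was 18770 and 17944 in p53 knockout 1 and 3 and 7844 to 15101 in Cdkn2a knockout, with no overlap. Of the 10 tested T lymphoblast markers, 3 were called lower in Cdkn2a knockout than in p53 knockout 1 and 3 and 0 higher. Over all genes these shares were 10.9 percent and 9.24 percent. Cd3e, a subunit of the T cell receptor complex and 1 of the 3, was lower by a log2 difference of -1.13 ± 0.26 (limma, adjusted p = 0.00219). The part of this difference in the members was not tested.

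**Figure D2:**
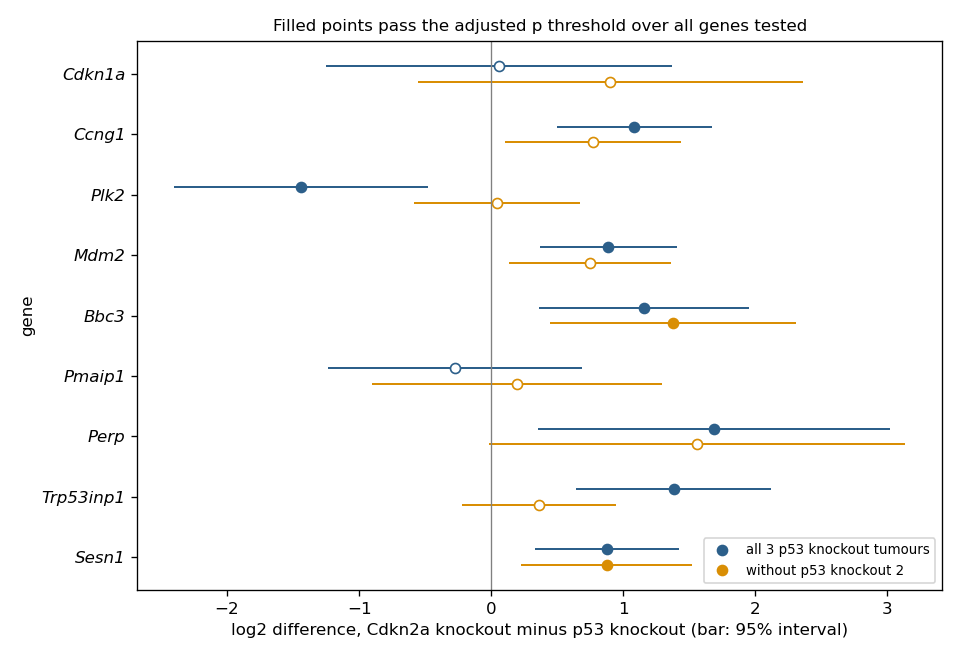
Difference in log2(signal + 15.9) between the 9 Cdkn2a knockout tumours and the p53 knockout tumours for each measured p53 target gene, with its 95% interval, using all 3 p53 knockout tumours or leaving out p53 knockout 2; filled points are called at an adjusted p under 0.05. Plk2 moves from -1.44 to 0.047 when p53 knockout 2 is left out, and Bbc3 and Sesn1 are called both ways.

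Among the genes that act on the cell cycle, Cdkn1a encodes p21, the inhibitor of cyclin-dependent kinases through which p53 arrests cells. Its signal was 89.6, 699 and 129 in p53 knockout 1, 2 and 3. In Cdkn2a knockout it ran from 84.7 to 512 with a median of 319, and in TLX1 transgenic from 121 to 621 with a median of 292. The highest p53 knockout value was that of tumour 2, and the groups overlapped. p53 knockout differed from the mean of the others by 0.56 ± 0.58 (limma, adjusted p = 0.525) and, without tumour 2, by -0.28 ± 0.67 (adjusted p = 0.847). Cdkn2a knockout differed from p53 knockout by 0.06 ± 0.65 (adjusted p = 0.954), with a 95% interval from -1.25 to 1.37, and by 0.90 ± 0.72 without tumour 2 (adjusted p = 0.402). The loss of p53 was thus not detectable in the level of Cdkn1a in this number of tumours.

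With all tumours and its probe set of highest level (1424638_at), Cdkn1a was called in 1 background, beta-catenin transgenic, with signals of 141, 1090 and 1140. The second and the third of these tumours were above every other tumour, and the first was not. The difference from the mean of the others was 2.07 ± 0.58 (limma, adjusted p = 0.0107). It was not called without beta-catenin tumour 2 (1.61, limma, adjusted p = 0.135) or tumour 3 (1.58, adjusted p = 0.166). The second probe set of Cdkn1a (1421679_a_at) was above the array median in only 2 of the 47 tumours. On it p53 knockout had the highest mean of the 14 backgrounds, with 131 in tumour 2 and at most 17.7 in tumours 1 and 3. The beta-catenin transgenic tumours, at 6.85 to 35.9, ranked 4 there. The summed myeloid marker signal of beta-catenin tumours 1, 2 and 3 was 6513, 8809 and 10567, in the same order as Cdkn1a, and their B cell sum was 9221, 7304 and 6625. Both medians were the highest of the 14 backgrounds, and their part in the beta-catenin values of Cdkn1a, Mdm2 and Bbc3 was not tested. At the low end lay Tal1-LMO2 tumours 1 and 2 at 41.2 and 18.7, an E2A knockout tumour at 30.8, a rag E2A knockout tumour at 46.1 and a Pokemon tumour at 40.9. The other E2A knockout tumour was at 376, so tumours of 1 background could lie far apart. Among the Cdkn2a knockout tumours, numbers 1, 2, 3, 4 and 6 had Cdkn1a between 319 and 512 and numbers 5, 7, 8 and 9 between 84.7 and 118. The first set had T lymphoblast marker sums of 7844 to 9386 and the second 14271 to 15101; the part of this difference in Cdkn1a was not tested.

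Ccng1 encodes cyclin G1, which recruits a phosphatase to Mdm2, and it was measured by 3 probe sets, all of them well expressed. With the probe set of highest level (1420827_a_at), its signal was 732, 317 and 529 in p53 knockout 1, 2 and 3. It ran from 873 to 1472 in Cdkn2a knockout, with a median of 1101. All 9 Cdkn2a knockout tumours were above all 3 p53 knockout tumours, and 7 of the 44 tumours of other backgrounds lay at or below the highest p53 knockout value. p53 knockout was lower than the mean of the others by a log2 difference of -0.84 ± 0.26 (limma, adjusted p = 0.0191), and the difference was -0.53 ± 0.31 without tumour 2 (adjusted p = 0.323). Against p53 knockout, Cdkn2a knockout was higher by 1.09 ± 0.29 (adjusted p = 0.00487), and the difference was 0.77 ± 0.33 without tumour 2 (adjusted p = 0.0932).

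The other probe sets of Ccng1 separated p53 knockout further. With 1450016_at the signal was 201, 109 and 238 in p53 knockout 1, 2 and 3, and 469 to 819 in Cdkn2a knockout. With 1450017_at it was 113, 73.7 and 185 in p53 knockout and 448 to 736 in Cdkn2a knockout. On the last probe set, all 38 tumours that were neither p53 knockout nor TLX1 transgenic were at 204 or more, above every p53 knockout tumour, and all 6 TLX1 transgenic tumours lay between 99.8 and 156. When each named probe set was tested by itself over 20380 probe sets, an analysis added after the data had been seen, p53 knockout was lower than the mean of the others by a log2 difference of -1.39 ± 0.26 (limma, adjusted p = 3.76e-04) on 1450016_at and by -1.39 ± 0.21 (adjusted p = 2.64e-05) on 1450017_at. Both calls were kept without p53 knockout 2, at -1.09 ± 0.31 (adjusted p = 0.0324) and -1.11 ± 0.25 (adjusted p = 0.0058). They were also kept without p53 knockout 1 and without p53 knockout 3. With the Gapdh 3′ to 5′ ratio as a covariate and without tumour 2, the values were -1.09 (adjusted p = 0.0335) and -1.08 (adjusted p = 0.00774).

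The TLX1 transgenic tumours gave a different answer on each probe set of Ccng1. On 1450017_at they were below the mean of the others by -1.34 ± 0.16 (limma, adjusted p = 5.72e-08), and with the Gapdh ratio as a covariate by -1.19 (adjusted p = 0.00491). On 1450016_at the difference was -0.72 (limma, adjusted p = 0.00371), and -0.70 ± 0.32 with the covariate (adjusted p = 0.195). On 1420827_a_at it was -0.02, and the TLX1 signals ran from 485 to 1723, including the highest of the 44 tumours outside p53 knockout. The 3 probe sets of 1 gene thus disagreed in TLX1 transgenic tumours, the background with the highest 3′ to 5′ control ratios, whereas in p53 knockout all 3 were called lower with all tumours and 2 of the 3 without tumour 2.

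**Figure D3:**
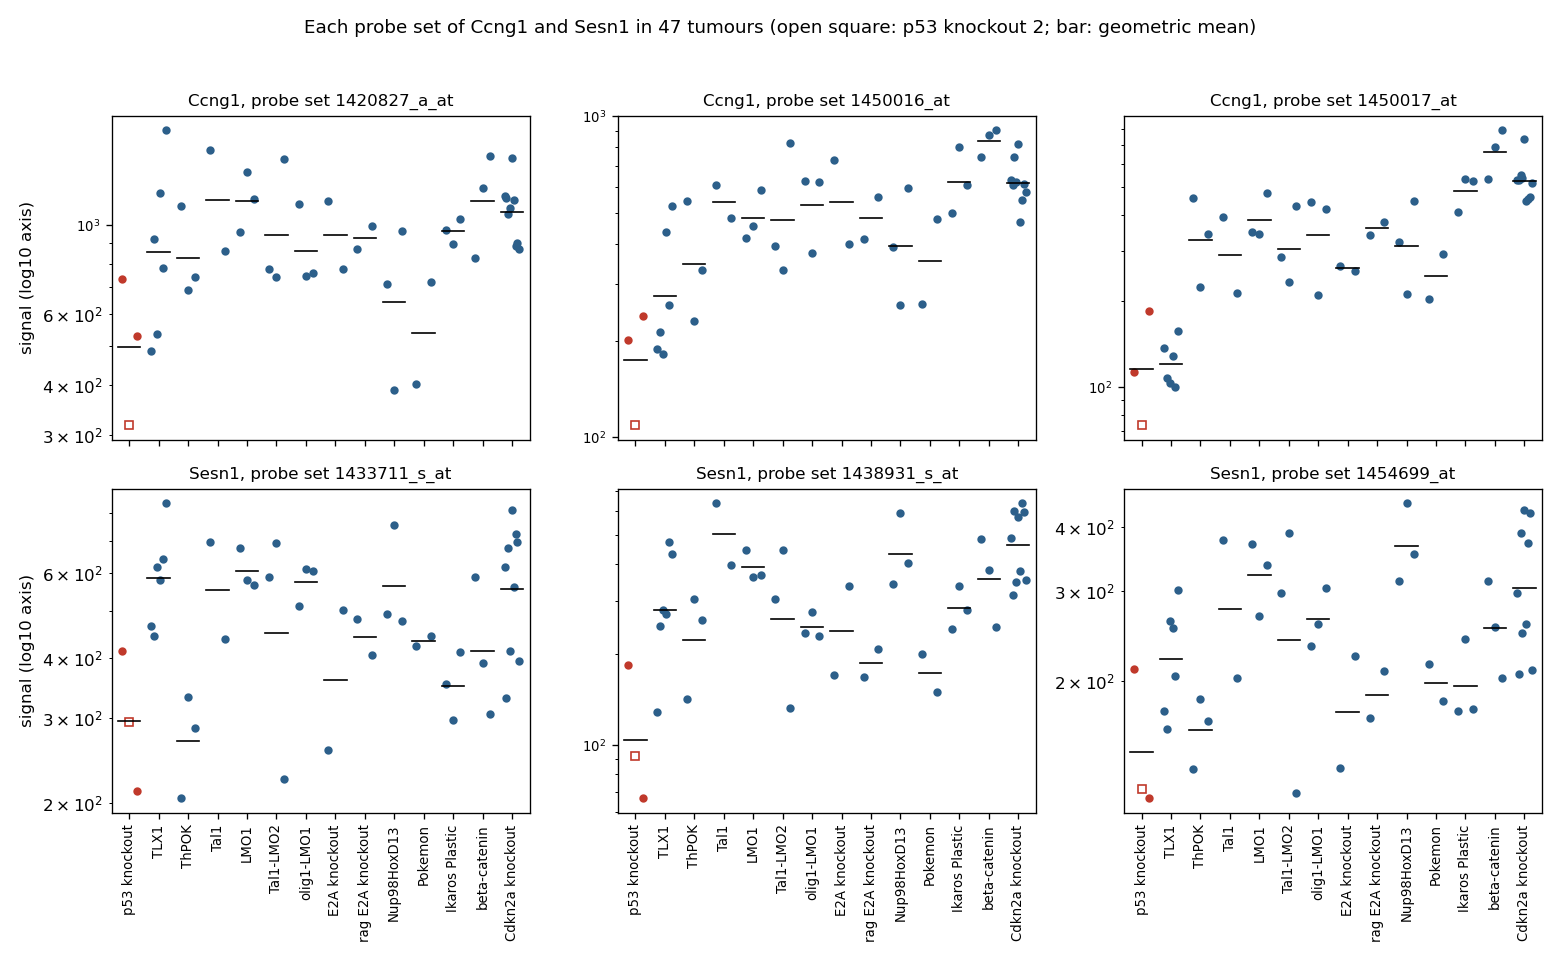
Deposited signal (log10 axis) of the 3 probe sets of Ccng1 and the 3 of Sesn1 in each of the 47 tumours, by background; the open square is p53 knockout 2 and the bar is the geometric mean of a background. On Ccng1 probe set 1450017_at the p53 knockout tumours lie at 73.7 to 185 and the TLX1 transgenic tumours at 99.8 to 156, and all other tumours are at 204 or more.

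Plk2, a polo-like kinase induced by p53 and also by other stimuli, was above the array median in 5 of the 47 tumours. Its signal was 41.2, 1079 and 27.4 in p53 knockout 1, 2 and 3, and the highest of the other 44 tumours was 153. The high p53 knockout value is that of tumour 2 alone, the tumour with the high endothelial and stromal sums; the part of those cells in it was not tested. The call of higher Plk2 in p53 knockout (1.62 ± 0.43, limma, adjusted p = 0.00647) was lost without tumour 2 (0.14 ± 0.29, adjusted p = 0.828). The difference of Cdkn2a knockout from p53 knockout changed from -1.44 ± 0.48 (adjusted p = 0.0204) to 0.047 ± 0.31 (adjusted p = 0.936). Ikaros Plastic tumours had signals of 105, 143 and 153 and were higher than the mean of the others by 1.72 ± 0.43 (adjusted p = 0.00426); without Ikaros Plastic 2 the difference was 1.67 (adjusted p = 0.0502). ThPOK transgenic tumours had 2.96, 4.62 and 8.13 and were lower by a log2 difference of -1.31 ± 0.43 (adjusted p = 0.0396), a call that was lost without any 1 of the 3. Without p53 knockout 2, both differences were called, at 1.83 ± 0.24 (adjusted p = 1.42e-06; 18.3 percent of all genes called higher) and -1.20 ± 0.24 (adjusted p = 9.81e-04).

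Mdm2, the ubiquitin ligase that p53 induces and that in turn degrades p53, had signals of 243, 203 and 315 in p53 knockout 1, 2 and 3 with its probe set of highest level (1423605_a_at). In Cdkn2a knockout it ran from 205 to 673 with a median of 539. Of the 9 Cdkn2a knockout tumours, 8 were above all p53 knockout tumours, and number 8, at 205, was not. Over the other backgrounds, 11 of 44 tumours lay at or below the highest p53 knockout value, and TLX1 transgenic tumours, at 204 to 342, were the closest to p53 knockout by mean. The difference of p53 knockout from the mean of the others was -0.54 ± 0.23 (limma, adjusted p = 0.0879), and -0.40 ± 0.28 without tumour 2 (adjusted p = 0.435). Cdkn2a knockout was higher than p53 knockout by 0.89 ± 0.26 (adjusted p = 0.00879), and the difference was 0.75 ± 0.30 without tumour 2 (adjusted p = 0.0743).

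In Mdm2, Cdkn2a knockout was higher than the mean of the other 13 backgrounds by 0.42 ± 0.14 (limma, adjusted p = 0.0262). This call was lost without Cdkn2a knockout tumour 2, 4, 5 or 6, or without the TLX1 transgenic tumours (adjusted p = 0.0503). The beta-catenin transgenic tumours had the highest mean of the 14 backgrounds, with signals of 556, 702 and 693. They were higher than the mean of the others by 0.88 ± 0.23 (adjusted p = 0.00676), a call that was lost without beta-catenin tumour 2 (adjusted p = 0.0561) or 3 (adjusted p = 0.0645). They were also higher than p53 knockout, by 1.32 ± 0.32 (adjusted p = 0.00294), and by 1.18 ± 0.35 without p53 knockout 2 (adjusted p = 0.0169). On the second probe set of Mdm2 (1427718_a_at) p53 knockout had 186, 102 and 155, and all 9 Cdkn2a knockout tumours, at 215 to 373, were above them. On it p53 knockout was lower than the mean of the others by a log2 difference of -0.67 ± 0.18 (limma, adjusted p = 0.00897). The difference was -0.45 ± 0.21 without tumour 2 (adjusted p = 0.232). On this probe set 12 of the 44 tumours of other backgrounds lay at or below the highest p53 knockout value. Tal1 transgenic, at 115 and 119, had the lowest mean of the 14 backgrounds there. Cdkn2a knockout ranked 5 from high to low on it. With the Gapdh ratio as a covariate, its difference from the mean of the others there was 0.18 (limma, adjusted p = 0.243). On 1423605_a_at it was 0.43 with the covariate (adjusted p = 0.0325). The call of higher Mdm2 in Cdkn2a knockout thus rested on 1423605_a_at.

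**Figure D4:**
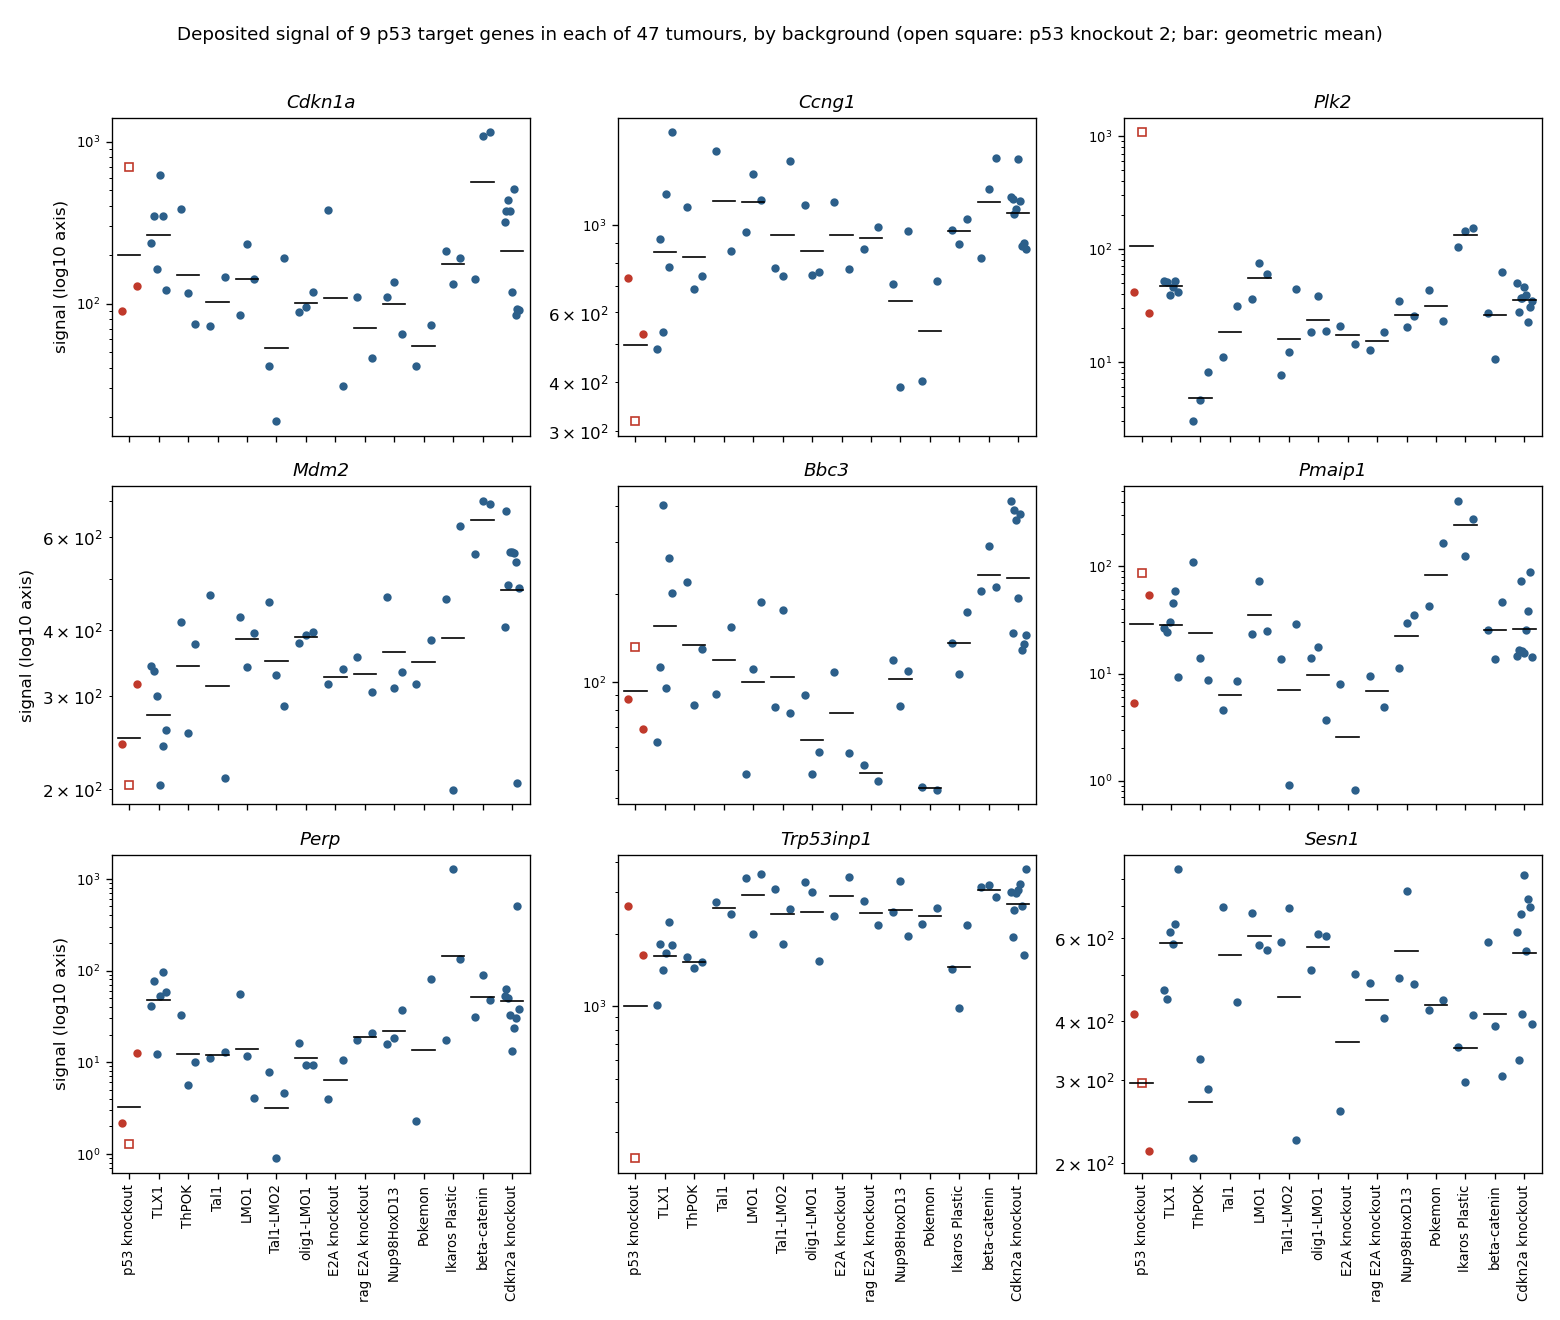
Deposited signal (log10 axis) of the 9 measured p53 target genes in each of the 47 tumours, by background, with 1 panel a gene; the open square is p53 knockout 2 and the bar is the geometric mean of a background. p53 knockout 2 has a Plk2 signal of 1079 and a Trp53inp1 signal of 234, both outside the range of the 44 tumours of the other backgrounds.

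Among the genes of apoptosis, Bbc3 encodes Puma, a BH3-only protein needed for the death of thymocytes after DNA damage. Its signal was 87.4, 132 and 69.0 in p53 knockout 1, 2 and 3, and 128 to 415 in Cdkn2a knockout with a median of 193. All but 1 of the 9 Cdkn2a knockout tumours were above all p53 knockout tumours; number 7, at 128, lay below p53 knockout 2. Cdkn2a knockout was higher than the mean of the other backgrounds by 1.07 ± 0.22 (limma, adjusted p = 3.74e-04). It was higher than p53 knockout by 1.16 ± 0.39 (adjusted p = 0.0241), and by 1.38 ± 0.46 without p53 knockout 2 (adjusted p = 0.0307).

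p53 knockout itself did not have the lowest level of Bbc3. Its difference from the mean of the others was -0.18 ± 0.35 (limma, adjusted p = 0.755), and -0.40 ± 0.43 without tumour 2 (adjusted p = 0.648). Pokemon transgenic tumours, at 43.8 and 42.7, and rag E2A knockout tumours, at 51.9 and 45.9, were below all 3 p53 knockout tumours. The beta-catenin transgenic tumours had 204, 290 and 210, all above p53 knockout, and were higher than the mean of the others by 1.09 ± 0.35 (adjusted p = 0.0264), a call lost without any 1 of the 3 tumours. TLX1 transgenic tumours spread from 62.2 to 403 with a median of 156 and overlapped p53 knockout. The call of Cdkn2a knockout over p53 knockout was lost without p53 knockout 1 (adjusted p = 0.069) or 3 (adjusted p = 0.103).

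Pmaip1 encodes Noxa, another BH3-only protein, and was above the array median in 6 tumours. It was high in Ikaros Plastic, at 409, 126 and 278, and was 42.9 and 164 in Pokemon transgenic. In p53 knockout it was 5.27, 86.1 and 53.8, which overlapped the 14.2 to 88.0 of Cdkn2a knockout. Ikaros Plastic was higher than the mean of the others by 2.78 ± 0.43 (limma, adjusted p = 4.24e-05), a call kept under all 59 alternative settings. It was higher than p53 knockout by 2.29 ± 0.58 (adjusted p = 0.00944; 1.63 and adjusted p = 0.0841 without p53 knockout 1), and by 2.76 ± 0.63 without p53 knockout 2 (adjusted p = 0.00352). The difference of p53 knockout from the mean of the others was 0.31 ± 0.43 (adjusted p = 0.648), and -0.16 ± 0.50 without tumour 2 (adjusted p = 0.888).

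Perp, a membrane protein of desmosomes that p53 induces in dying cells, was above the array median in 8 tumours. Its signal was 2.15, 1.28 and 12.5 in p53 knockout 1, 2 and 3, and 13.4 to 508 in Cdkn2a knockout with a median of 37.8. All 9 Cdkn2a knockout tumours were above all 3 p53 knockout tumours, but 14 of the 44 tumours of other backgrounds lay at or below the highest p53 knockout value. Cdkn2a knockout was higher than p53 knockout by 1.69 ± 0.66 (limma, adjusted p = 0.0487), a call kept under 14 of 59 alternative settings, and the difference was 1.56 ± 0.78 without tumour 2 (adjusted p = 0.157). The difference of p53 knockout from the mean of the others was -1.01 ± 0.59 (adjusted p = 0.225), and -0.88 ± 0.72 without tumour 2 (adjusted p = 0.53).

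Ikaros Plastic had Perp signals of 17.5, 1273 and 134 and was higher than the mean of the others by 2.40 ± 0.59 (limma, adjusted p = 0.00407). The tumour at 1273 was the highest of all 47, and without it the difference was 1.01 (adjusted p = 0.341). Against p53 knockout the difference was 3.17 ± 0.81 (adjusted p = 0.00959), and 3.04 ± 0.91 without p53 knockout 2 (adjusted p = 0.0216). It was 1.77 with all p53 knockout tumours but without Ikaros Plastic 2 (adjusted p = 0.155). Perp is also a gene of epithelium, and the summed signal of the 9 measured epithelial markers was 355, 8309 and 1868 in Ikaros Plastic 1, 2 and 3, against 260 to 448 in p53 knockout. The tumour with the highest Perp was the tumour with the highest epithelial sum of all 47. Cdkn2a knockout 8, the highest of its group for Perp, had an epithelial sum of 2407. TLX1 transgenic 6, with a sum of 3370, had a Perp signal of 58.3. The part of epithelial cells in the Perp values was not tested.

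**Figure D5:**
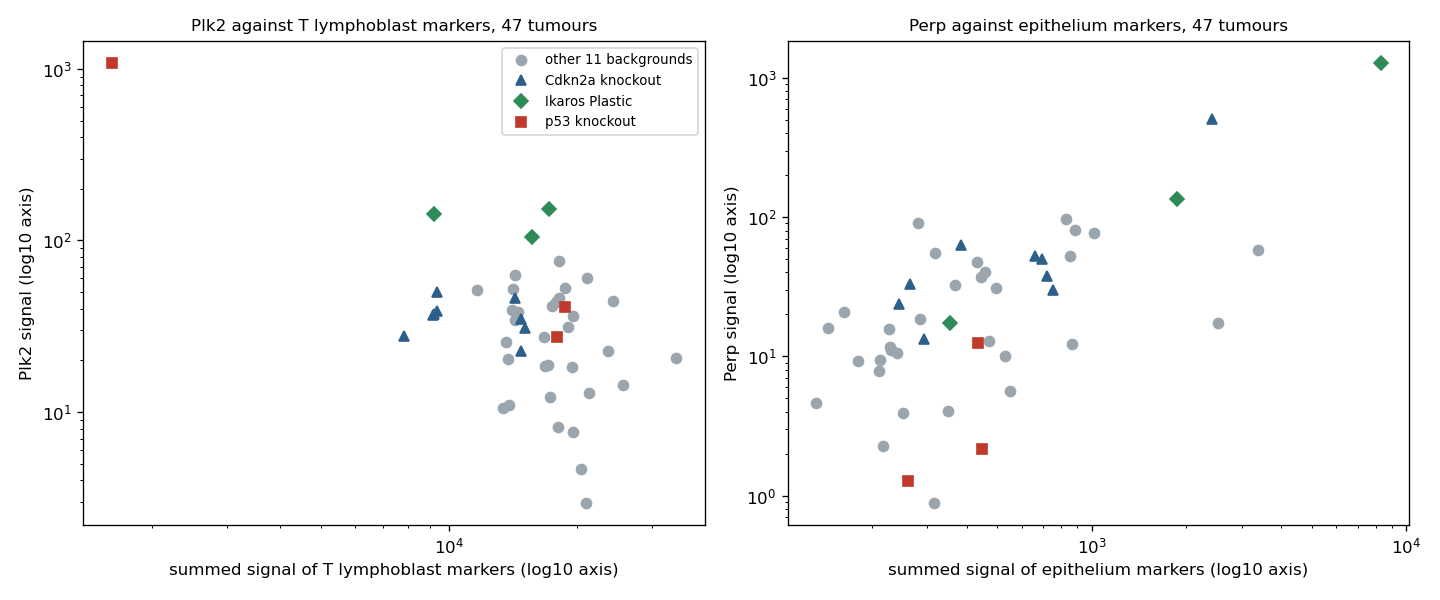
Plk2 signal against the summed signal of the T lymphoblast markers, and Perp signal against the summed signal of the epithelial markers, 1 point a tumour, both axes on a log10 scale. p53 knockout 2 has the lowest T lymphoblast sum (1608) and the highest Plk2 (1079), and Ikaros Plastic 2 has the highest epithelial sum (8309) and the highest Perp (1273).

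Trp53inp1 encodes a stress protein that promotes apoptosis and autophagy. Its signal was 2619, 234 and 1636 in p53 knockout 1, 2 and 3 on 1416926_at, and 987 to 3716 in the other 44 tumours. Tumours 1 and 3 lay inside that range, and tumour 2 below it. The call of lower Trp53inp1 in p53 knockout (-1.18 ± 0.33, limma, adjusted p = 0.00944) was lost without tumour 2 (-0.16 ± 0.27, adjusted p = 0.779). The difference of Cdkn2a knockout from p53 knockout was 1.38 ± 0.37 (adjusted p = 0.00436), and 0.36 ± 0.29 without tumour 2 (adjusted p = 0.403). With tumour 2 left out, Trp53inp1 was lower in 3 other backgrounds than in the mean of the rest. The log2 difference was -0.54 ± 0.16 in TLX1 transgenic (adjusted p = 0.00863; 14.5 percent of all genes called lower), -0.70 ± 0.22 in Ikaros Plastic (adjusted p = 0.0162; 10.4 percent) and -0.63 ± 0.22 in ThPOK transgenic (adjusted p = 0.0495; 6.46 percent). The second probe set of Trp53inp1 (1416927_at) gave another picture. Its signal was 434, 17.6 and 325 in p53 knockout 1, 2 and 3, and tumours 1 and 3 were above all ThPOK and Tal1 transgenic tumours. Tested by itself, it differed from the mean of the others in p53 knockout by -0.64 ± 0.53 (adjusted p = 0.434), and by 0.54 ± 0.55 without tumour 2 (adjusted p = 0.659). Without tumour 2 it was lower in TLX1 transgenic (-1.12 ± 0.34, adjusted p = 0.00872) and in ThPOK transgenic (-1.40 ± 0.46, adjusted p = 0.0429), but not in Ikaros Plastic (0.16 ± 0.46, adjusted p = 0.833).

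Sesn1 encodes a sestrin, which lowers growth signalling through the mTOR kinase and limits oxidative stress. On its probe set of highest level (1433711_s_at) the signal was 414, 295 and 212 in p53 knockout 1, 2 and 3, and 331 to 813 in Cdkn2a knockout with a median of 618. Of the 9 Cdkn2a knockout tumours, 6 were above all p53 knockout tumours, and 14 of the 44 tumours of other backgrounds lay at or below the highest p53 knockout value. p53 knockout differed from the mean of the others by -0.62 ± 0.24 (limma, adjusted p = 0.0649), and by -0.61 ± 0.30 without tumour 2 (adjusted p = 0.22). Cdkn2a knockout was higher than p53 knockout by 0.88 ± 0.27 (adjusted p = 0.0131), and by 0.88 ± 0.32 without tumour 2 (adjusted p = 0.0472). The value was thus the same with and without p53 knockout 2; without p53 knockout 3 it was 0.65 (adjusted p = 0.107).

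On the second probe set of Sesn1 (1438931_s_at) the signal was 185, 91.9 and 66.8 in p53 knockout and 316 to 635 in Cdkn2a knockout. All 9 Cdkn2a knockout tumours were above all p53 knockout tumours, and 6 of the 44 tumours of other backgrounds lay at or below the highest p53 knockout value. On it p53 knockout was lower than the mean of the others by a log2 difference of -1.36 ± 0.28 (limma, adjusted p = 9.1e-04), and by -1.28 ± 0.34 without tumour 2 (adjusted p = 0.022). With the Gapdh ratio as a covariate and without tumour 2 the difference was -1.40 (adjusted p = 0.00948). On it Cdkn2a knockout was higher than p53 knockout by 1.97 ± 0.31 (adjusted p = 1.5e-05), and by 1.89 ± 0.37 without tumour 2 (adjusted p = 4.67e-04). ThPOK transgenic, at 205, 332 and 287 on 1433711_s_at, had the lowest mean of the 14 backgrounds there. On that probe set it was lower than the mean of the others by a log2 difference of -0.75 ± 0.24 (limma, adjusted p = 0.0375). This call was lost without any 1 of its 3 tumours. From high to low, ThPOK transgenic ranked 11 of 14 by mean on 1438931_s_at and 13 on 1454699_at, and p53 knockout was the lowest on both.

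Over all 16 probe sets of the 9 genes, tested by themselves, p53 knockout was lower than the mean of the others on 7 and higher on 1, where 7.74 percent of all named probe sets were called lower and 10.4 percent higher. Without p53 knockout 2 it was lower on 3 and higher on 0, against 2.03 percent and 3.12 percent. Those 3 were 1450016_at and 1450017_at of Ccng1 and 1438931_s_at of Sesn1. Cdkn2a knockout was higher than p53 knockout on 10 of 16 with all tumours (14.7 percent of all) and on 5 of 16 without p53 knockout 2 (9.45 percent of all). The 5 were 1450016_at and 1450017_at of Ccng1, 1438931_s_at and 1454699_at of Sesn1, and the probe set of Bbc3. On 1450017_at of Ccng1 the difference was 2.03 ± 0.24 (limma, adjusted p = 8.31e-08), and 1.75 ± 0.26 without p53 knockout 2 (adjusted p = 1.82e-05). Cdkn2a knockout did not stand alone in this count. Ikaros Plastic was higher than p53 knockout on 6 of 16 with all tumours (8.94 percent of all) and on 6 without p53 knockout 2 (8.77 percent). Beta-catenin transgenic was higher on 7 (13.6 percent) and on 5 (11.1 percent). Without p53 knockout 2 these covered 5 genes in Ikaros Plastic, 3 in beta-catenin transgenic and 3 in Cdkn2a knockout.

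The same comparison with p53 knockout was made for each of the other 13 backgrounds, all against the same 3 or 2 p53 knockout tumours. With all tumours there were 16 calls of a member above p53 knockout, of which 6 were in Cdkn2a knockout and 3 in beta-catenin transgenic (Ccng1, Mdm2 and Trp53inp1; 10.9 percent of all genes). Ikaros Plastic had 2 (Pmaip1 and Perp; 6.58 percent), LMO1 transgenic 2 (Ccng1 and Trp53inp1; 4.03 percent), Tal1 transgenic 1 (Ccng1; 6.61 percent), Tal1-LMO2 double transgenic 1 (Trp53inp1; 8.65 percent) and E2A knockout 1 (Trp53inp1; 6.55 percent). TLX1 transgenic (1.86 percent), ThPOK transgenic (7.46 percent), olig1-LMO1 double transgenic (5.36 percent), rag E2A knockout (5.1 percent), Nup98HoxD13 transgenic (3.93 percent) and Pokemon transgenic (3.39 percent) had 0 of 9. The calls in LMO1, Tal1 and Tal1-LMO2 double transgenic and in E2A knockout were each lost without p53 knockout 2, and each also without at least 1 tumour of its own background. The call of Ccng1 in beta-catenin transgenic was lost without p53 knockout 2 and without beta-catenin tumour 2 (1.13, adjusted p = 0.0562) or 3 (1.00, adjusted p = 0.083).

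Without p53 knockout 2 there were 6 calls of a member above p53 knockout, in 3 backgrounds. In Cdkn2a knockout they were Bbc3 and Sesn1. Ikaros Plastic had Plk2, Pmaip1 and Perp above p53 knockout (8.68 percent of all genes), and beta-catenin transgenic had Mdm2 (9.73 percent). In the other 10 backgrounds 0 of 9 were called higher, and from 0.564 percent (TLX1 transgenic) to 4.19 percent (ThPOK transgenic) of all genes were. In the other direction, Plk2 was lower in ThPOK transgenic than in p53 knockout. With all tumours the log2 difference was -2.73 (limma, adjusted p = 0.00168), where 644 of 8810 genes were called lower. That call was kept under all 58 alternative settings that tested Plk2, p53 knockout 2 left out among them (adjusted p at most 0.0258). The calls of Trp53inp1 in any background, and of Ccng1 on the probe set that stood for the gene, were not among the 6 calls above p53 knockout. On 1450017_at of Ccng1, however, ThPOK, LMO1, Tal1-LMO2 double, olig1-LMO1 double, rag E2A knockout, Ikaros Plastic, beta-catenin and Cdkn2a knockout tumours were each higher than p53 knockout 1 and 3, where 0.996 percent (rag E2A knockout) to 11.1 percent (beta-catenin transgenic) of all named probe sets were called higher. The log2 differences ran from 1.00 ± 0.31 in Tal1-LMO2 double transgenic (limma, adjusted p = 0.0407) to 2.08 ± 0.31 in beta-catenin transgenic (adjusted p = 2.37e-05). On 1438931_s_at of Sesn1, Tal1, LMO1, Nup98HoxD13, beta-catenin and Cdkn2a knockout tumours were higher. There 1.03 percent (LMO1 and Nup98HoxD13 transgenic) to 11.1 percent (beta-catenin transgenic) of all named probe sets were called higher. The differences ran from 1.54 ± 0.43 in beta-catenin transgenic (limma, adjusted p = 0.0114) to 2.01 ± 0.47 in Tal1 transgenic (adjusted p = 0.00674). In ThPOK, Tal1-LMO2 double and olig1-LMO1 double transgenic and rag E2A knockout, 1450017_at was the only 1 of the 16 probe sets called higher. In Tal1 and Nup98HoxD13 transgenic only 1438931_s_at was, and in LMO1 transgenic only these 2 were. A background that was not called was not shown to be at the p53 knockout level.

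Each against the mean of the other 13, the backgrounds other than p53 and Cdkn2a knockout gave 8 member calls. They were Pmaip1, Perp and Plk2 higher in Ikaros Plastic (15 percent of all genes), Cdkn1a, Mdm2 and Bbc3 higher in beta-catenin transgenic (11.4 percent), and Plk2 and Sesn1 lower in ThPOK transgenic (5.21 percent). Each of the other 9 backgrounds had 0 of 9 called on the probe set that stood for the gene. In either direction, 31.5 percent of all genes were called in TLX1 transgenic, 6.67 percent in Tal1-LMO2 double transgenic, 4.96 percent in Tal1 transgenic, 4.34 percent in E2A knockout and 3.01 percent in Nup98HoxD13 transgenic. The shares were 1.56 percent in rag E2A knockout, 1.03 percent in LMO1 transgenic, 0.953 percent in Pokemon transgenic and 0.658 percent in olig1-LMO1 double transgenic, where few genes of any kind were called. In TLX1 transgenic the members ranged from -0.46 for Trp53inp1 to 0.95 for Cdkn1a. When the 16 probe sets were tested by themselves, TLX1 transgenic was higher on 1 and lower on 4. Of all named probe sets, 19.2 percent were called higher there and 14.6 percent lower. Tal1 transgenic was lower on 1 of the 16 (1.78 percent of all). Without p53 knockout 2, TLX1 transgenic had Cdkn1a higher by 1.01 ± 0.41 (limma, adjusted p = 0.048) and Plk2 higher by 0.50 ± 0.18 (adjusted p = 0.0244), where 22.2 percent of all genes were called higher. With the Gapdh 3′ to 5′ ratio as a covariate and every probe set tested by itself, neither was called. The differences were then 0.94 ± 0.67 for Cdkn1a (limma, adjusted p = 0.43) and 0.37 ± 0.28 for Plk2 (adjusted p = 0.455). The ratio was highest in this background and the standard errors were larger with the covariate, so background and ratio could not be told apart.

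The members did not move as 1 block over the backgrounds. Of the 36 pairs of genes, 25 had a Pearson r above 0 over the 14 background means, with a median of 0.22. The range was from -0.53 for Plk2 with Trp53inp1 to 0.80 for Cdkn1a with Bbc3 (Spearman rho 0.77). Pmaip1 was most like Perp (0.73) and Plk2 (0.69), 3 genes with their highest mean in Ikaros Plastic tumours, and Trp53inp1 was most like Sesn1 (0.59). With p53 knockout 2 left out, 29 of the 36 were above 0, with a median of 0.20. Cdkn1a with Bbc3 was then at 0.83, Pmaip1 with Perp at 0.78 and with Plk2 at 0.76, Trp53inp1 with Sesn1 at 0.44 and Plk2 with Trp53inp1 at -0.26. These values describe 14 means that share arrays and scaling.

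Other genes of the pathway were taken from lists fixed by name. Of 30 further p53 targets, 25 were tested, and in p53 knockout 4 were lower and 2 higher than in the mean of the others. The median was -0.34, against 0.04 over all genes. Without tumour 2, 2 were lower and none higher, with a median of -0.15 against 0.04. Over all genes the shares were 9.34 percent lower and 12.4 percent higher, and 2.67 and 4.02 percent without tumour 2. In Cdkn2a knockout against the mean of the others, 4 of the 25 were higher and 3 lower, against 16.1 and 14.6 percent of all genes. The median there was 0.01, against 0.02 over all genes, so these further targets were not raised as a set as the members were. In Cdkn2a knockout against p53 knockout, 6 of the 25 were higher and 1 lower, where 14.2 percent of all genes were higher and 15.2 percent lower. Without tumour 2, 5 were higher and 1 lower, against 9.24 and 10.9 percent. The median of the 25 was 0.43 with all tumours, against -0.04 over all genes, and 0.19 without tumour 2, against -0.01. Ptprv, a receptor-type phosphatase of p53-induced arrest, was 48.7, 35.9 and 49.3 in p53 knockout and 109 to 187 in Cdkn2a knockout. The groups did not overlap, and Cdkn2a knockout was higher by 1.38 ± 0.31 (limma, adjusted p = 9.21e-04), and by 1.28 ± 0.36 without tumour 2 (adjusted p = 0.011). Aen, an apoptotic nuclease, was 182, 232 and 234 in p53 knockout and 300 to 507 in Cdkn2a knockout, again with no overlap. It was higher in Cdkn2a knockout by 0.85 ± 0.20 (adjusted p = 0.00128), and by 0.90 ± 0.23 without tumour 2 (adjusted p = 0.00508). Fas, the death receptor, was 15.7, 20.1 and 79.1 against 41.4 to 207, with overlap through p53 knockout 3, and was higher by 1.50 ± 0.39 (adjusted p = 0.00411), and by 1.30 ± 0.46 without tumour 2 (adjusted p = 0.0417). Pidd1, an adaptor of caspase activation, was higher in Cdkn2a knockout by 0.99 ± 0.26 (adjusted p = 0.00392), and this call was lost without tumour 2 (0.49 ± 0.26, adjusted p = 0.188). Against the mean of the others, p53 knockout was lower in Ptprv (-1.15 ± 0.28, adjusted p = 0.00317) and in Aen (-0.62 ± 0.18, adjusted p = 0.0115), and both calls were lost without tumour 2 (-1.04, adjusted p = 0.0518; -0.67, adjusted p = 0.0509).

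Of 25 regulators of p53, 18 were tested, and in p53 knockout 2 were higher and 3 lower than in the mean of the others; without tumour 2, 1 was higher and 1 lower. The shares of all genes, here and for the lists that follow, were 12.4 percent higher and 9.34 percent lower, and 4.02 and 2.67 percent without tumour 2. The one higher both ways was Cdkn2a, the gene of Arf, at 271, 148 and 345 in p53 knockout and 2.36 to 160 in the other 44 tumours. p53 knockout 1 and 3 were above all of those, and the difference was 2.60 ± 0.37 (limma, adjusted p = 1.14e-05), and 2.93 ± 0.44 without tumour 2 (adjusted p = 1e-04). In the Cdkn2a knockout tumours the same probe set read 12.7 to 37.3, and their difference from the mean of the other backgrounds was -0.30 ± 0.23 (adjusted p = 0.337). The level of the targeted gene was thus low there but was not called lower than in the other backgrounds, and whether the probe set lies in the deleted part is not given in the sources used here. Sirt1, the deacetylase that acts on p53, was the one lower both ways, by a log2 difference of -1.08 ± 0.20 (adjusted p = 3.09e-04), and by -0.76 without tumour 2 (adjusted p = 0.0361). Mdm4, the partner of Mdm2, was 234, 136 and 189 in p53 knockout and 313 to 526 in Cdkn2a knockout, which was higher by 1.07 with all tumours (adjusted p = 2.56e-04) and by 0.88 without tumour 2 (adjusted p = 0.00884). Of 17 tested cell cycle genes that p53 lowers through p21, none was called in p53 knockout with all tumours, and 1 was higher without tumour 2. Of 20 immediate early and stress genes, 5 were higher with all tumours, and 1 was higher and 2 lower without tumour 2. Of 9 tested partners in the BCL2 family, 2 were higher with all tumours and 1 without tumour 2. Of 5 tested inhibitors of cyclin-dependent kinases, 1 was higher and 1 lower with all tumours; the lower one, Cdkn1b, was also called without tumour 2 (-1.30, adjusted p = 0.0117).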

How the data were processed

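RNA of 47 tumours was measured on 1 array each. The authors deposited MAS5 signals, a linear intensity per probe set, per the submitters' processing notes; its version and its scaling target are not stated there. Gene names came from the platform annotation. Signals were taken as log2(signal + 15.9), the addend being the 25th percentile of all signals. A probe set had to exceed the array median in at least 2 arrays, and the one of highest mean stood for its gene, which left 8810 of 12393 genes (8687 without p53 knockout 2). limma 3.58.1 in R 4.3.3 fitted 14 background means over all tumours with an intensity trend. Each background was set against the unweighted mean of the other 13 and against p53 knockout, with Benjamini-Hochberg adjustment over all tested genes. The script was tested on simulated data.

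The members and the gene lists were chosen with earlier results of these data known. Named besides the members are up to 4 genes of lowest p from a list, among those called in p53 knockout or in Cdkn2a knockout against p53 knockout. Thy1 is on the stromal and T lymphoblast lists and was left out of the stromal sum. Alternatives, 43 fixed and 16 added after the data had been seen, covered the addend, filter, probe set, scaling, trend, array weights, Gapdh ratio, title numbers as a block and each tumour left out. Probe sets were also tested singly. The number of arrays limits the precision. Promoter windows came from RefSeq. Neither the p53 gene itself nor Bax was analysed here. Tumour numbers do not pair tumours of different backgrounds: deviations of same-numbered tumours had a median correlation of -0.00 over 230 pairs, with 27 over 0.1, against 0.00 over 772 pairs of different number.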

Additional observations from a re-analysis of the deposited data

Results flagged for a closer look

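In Cdkn2a knockout 8, Mdm2 was low at 205, while the other 8 tumours of that background lay between 405 and 673. The gap to its nearest neighbour was 0.566 of the whole range of log2 values in the group. In the same tumour Perp was high at 508, while the others lay between 13.4 and 63.4, and the gap was 0.655 of the range. Its summed epithelial marker signal was 2407. Both gaps exceed what Dixon's 95% criterion allows for 9 tumours. The 9 genes were examined in the 2 backgrounds of more than 5 tumours, 18 groups in all, and chance gives such a gap in about 1 of 20 groups.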

How the results depend on the processing

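Of 37 called member values, 4 kept their call under all 59 alternatives and 1 changed sign: Plk2 in Cdkn2a knockout against p53 knockout, at 0.047 without p53 knockout 2, with a range from -2.28 (without p53 knockout 3) to 0.047 when 1 tumour was left out. Of 32 called values of list genes, 11 kept their call and 3 changed sign, all with the probe set of largest interquartile range: Cdkn1b in p53 knockout (0.014), and in Cdkn2a knockout against p53 knockout Bak1 (1.05) and Cdkn1b (-0.39). With 1 tumour left out, members called ranged from 6 to 9 among the backgrounds, 0 to 4 in p53 knockout, 1 to 3 in Cdkn2a knockout, 2 to 7 in Cdkn2a knockout against p53 knockout, 5 to 13 over the 12 other backgrounds and 6 to 28 above p53 knockout. The extremes came from leaving out p53 knockout 2 (0, 2, 13 and 6), p53 knockout 1 (28), Cdkn2a knockout 4, 5 or 6 (1) and beta-catenin 2 or 3 (5). With array weights the counts were 0 in p53 knockout, 5 in Cdkn2a knockout, 2 in Cdkn2a knockout against p53 knockout, 16 over the 12 others and 5 above p53 knockout. With the probe set of largest interquartile range they were 4 in Cdkn2a knockout, 13 over the 12 others and 31 above p53 knockout. Without the TLX1 tumours 1 member was called in Cdkn2a knockout. With the title number as a replicate block they were 6 of 9 among the backgrounds, 4 in p53 knockout (Mdm2 called too, at -0.58, adjusted p = 0.0453), 2 in Cdkn2a knockout, 4 in Cdkn2a knockout against p53 knockout, 6 over the 12 others and 14 above p53 knockout; the numbers do not pair the tumours. The cause of these changes was not tested. With 2 or 3 tumours a background, and Plk2, Pmaip1 and Perp below the array median in most tumours, small differences could not be resolved.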
